A study of Mus musculus with 32 samples.

Results

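The 8 genes described here encode 4 secreted fibroblast growth factors (FGFs), *Fgf4*, *Fgf5*, *Fgf8* and *Fgf15*, and the 4 FGF receptor tyrosine kinases, *Fgfr1*, *Fgfr2*, *Fgfr3* and *Fgfr4*. They were chosen by name, as these ligands and receptors, out of 51826 genes in the count table, and all 8 passed the filter on low counts. An FGF ligand binds its receptor together with heparan sulfate on the cell surface, and the activated receptor signals through adaptor proteins, RAS and RAF to MEK and ERK. Mouse embryonic stem (ES) cells make FGF4 themselves, and the ERK activity it evokes is a well-known stimulus for leaving naive pluripotency, the ground state of the preimplantation epiblast. The 2i medium blocks this route downstream of the receptors with the MEK inhibitor PD0325901 and adds the GSK3 inhibitor CHIR99021 (CH).

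RNA was sequenced from 32 libraries in 11 conditions. All cells were RGd2 mouse ES cells, which carry a short-lived GFP reporter in the naive marker gene *Rex1* (*Zfp42*), or mutants made in them with CRISPR/Cas9. RGd2 cells were sampled in 2i, after 5 passages in 2i (2i-p5), at 16 h (N16h) and 72 h (N72h) after both inhibitors were withdrawn into the basal medium N2B27, and at passage 2 in CH alone (CHp2). *Etv5*-KO and *Rbpj*-KO cells, which lack an ETS-family activator or the DNA-binding factor of the NOTCH pathway, were sampled in 2i and at N16h. ER-dKO cells lacked both factors and were held for 5 passages in CH (CHp5), and ETR-tKO cells lacked *Tcf3* (*Tcf7l1*) as well and were held for 5 passages in N2B27 without inhibitors (Np5). Each condition had 3 libraries except *Etv5*-KO N16h, with 2. The libraries of a mutant were separate clonal lines, whereas an RGd2 condition had 2 libraries of the parental line and 1 of a clonal derivative, so the p values measure the spread between these few lines and cultures. The study's methods describe routine culture of every line in CH with LIF and a change to 2i shortly before an assay, and a figure legend of the study marks this history for some samples only. Time, passage, medium and culture history therefore cannot be told apart where 2i or N16h cells are compared with passaged or N72h cells. In bulk RNA, fewer cells of a type and less RNA per cell also cannot be told apart.

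Library depth ranged from 5986857 to 71439411 gene counts (median 29940141), with the RGd2 2i library of the clonal derivative the shallowest. The spike-in RNAs took 0.9909% to 1.521% of counts. Their share varied most within RGd2 2i, at 0.9909%, 1.193% and 1.393% in its 3 libraries. The targeted genes were checked first. *Etv5* was lower by a log2 change between -2.79 and -2.04 in the 4 mutant conditions that lack it, *Rbpj* by -2.02 and -2.22 in the *Rbpj*-KO cells but by -0.62 in ER-dKO and -0.55 in ETR-tKO cells, and *Tcf7l1* by -2.66 in ETR-tKO cells. Reads outside the deleted part of each gene remain countable, so these values check the labels only in part. Why *Rbpj* fell less in ER-dKO and ETR-tKO than in *Rbpj*-KO cells was not tested. Among marker genes of cell state, the summed level of 10 naive genes was 928.4 to 1009 FPKM (fragments scaled by exon length and by the library's gene counts) in RGd2 2i, 64.85 to 71.13 at N72h and 297 to 339.3 in CHp2, and 7 formative genes went from 54.9 to 61.06 FPKM in 2i to 541.9 to 555.6 at N72h. *Pou5f1*, a gene of pluripotent cells in general, had a mean of 350.9 ± 51.2 FPKM (SD, n = 3) in RGd2 2i and 5 such genes summed to 587.3 to 796.1 FPKM there. Of other cell types, 6 neural genes summed to 16.61 to 92.47 FPKM and 7 trophoblast genes to 3.819 to 87.41 over all libraries, and 5 fibroblast genes to at most 6.776.

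Levels are given in FPKM, which corrects for gene length and lets genes be compared within a library. Differences are log2 fold changes of counts scaled by the spike-ins, with the standard error (SE) and a p from edgeR (its quasi-likelihood test), adjusted by the Benjamini-Hochberg method over 18892 genes. A gene was called higher or lower where the adjusted p was under 0.05 and its mean reached 1 FPKM in either condition. Spike-in scaling keeps changes in total RNA, and also any unevenness in the spike-ins added, and these cannot be told apart here. With it the median gene moved by -0.37 to 0.47 on the log2 scale over the 17 comparisons. TMM scaling, which sets that median near 0, is given beside a value where it changes a call. The percentages of all genes tested that were called are those of spike-in scaling. They are no background for a count under TMM scaling.

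The promoters of 3 members are shown. *Fgf4* was the most abundant ligand in most conditions, and *Fgf5* was the ligand that kept rising up to N72h. Of the receptors that reached 1 FPKM, *Fgfr2* varied most between conditions relative to its level. These are the 250 bases before the annotated start site in RefSeq for GRCm38.p6, written 5′ to 3′ along the gene. *Fgf4* lies on the plus strand at chr7:144861136-144861385, *Fgf5* on the plus strand at chr5:98253934-98254183 and *Fgfr2* on the minus strand at chr7:130266809-130267058. Capitals mark matches to the core motifs of ETS factors (CCGGAA), RBPJ (TGGGAA) or TCF/LEF factors (CTTTGA), searched on both strands.
Fgf4: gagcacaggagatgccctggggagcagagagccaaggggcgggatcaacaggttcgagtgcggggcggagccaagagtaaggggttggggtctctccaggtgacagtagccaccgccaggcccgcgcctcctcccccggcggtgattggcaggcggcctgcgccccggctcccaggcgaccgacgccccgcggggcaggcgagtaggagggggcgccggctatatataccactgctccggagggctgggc
Fgf5: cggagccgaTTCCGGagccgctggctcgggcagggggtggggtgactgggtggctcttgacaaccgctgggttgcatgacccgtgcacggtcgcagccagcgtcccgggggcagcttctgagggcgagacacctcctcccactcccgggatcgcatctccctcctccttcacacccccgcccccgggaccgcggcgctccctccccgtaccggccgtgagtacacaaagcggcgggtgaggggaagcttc
Fgfr2: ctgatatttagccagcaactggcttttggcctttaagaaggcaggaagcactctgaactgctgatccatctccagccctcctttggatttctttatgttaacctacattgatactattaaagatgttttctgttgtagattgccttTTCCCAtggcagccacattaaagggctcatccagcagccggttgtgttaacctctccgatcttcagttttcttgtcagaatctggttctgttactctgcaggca
The *Fgf4* window held none of the 3 motifs. The *Fgf5* window held the ETS letters on the opposite strand, 241 to 236 bases before the start, and the *Fgfr2* window held the RBPJ letters on the opposite strand, 104 to 99 bases before the start. Among 32851 promoter windows of the same length, 12% held the ETS letters, 21.6% the RBPJ letters and 13.8% the TCF/LEF letters, so single matches of this kind are common. *Fgfr4* also held the ETS letters, 178 to 173 bases before its start, and both annotated *Fgfr3* starts held no match. No promoter entry of this length was found for *Fgf8*, *Fgf15* and *Fgfr1* in the set used here. A match describes the letters and is not evidence of binding.

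*Fgf4* (chr7:144847367-144865243, plus strand, mm10) encodes the autocrine ligand of naive and early epiblast cells and was above 10 FPKM in all 32 libraries. In RGd2 cells it was measured at 51.4, 54.5 and 77.1 FPKM in 2i, at 44.1, 48.1 and 40.7 in 2i-p5 and at 80.4, 74.7 and 69.9 at N16h. At N72h it stood at 33.5, 29.0 and 33.1 FPKM and in CHp2 at 10.4, 10.8 and 12.5. The CHp2 libraries were the lowest of all 32 and the N72h libraries the next lowest, with no overlap between these conditions or with any other. *Etv5*-KO cells had 72.2, 69.5 and 72.3 FPKM in 2i and 82.1 and 89.6 at N16h. *Rbpj*-KO cells had 90.3, 68.6 and 68.5 FPKM in 2i and 72.2, 72.3 and 70.3 at N16h. The long-term mutant cultures were close to one another, with 55.9, 56.9 and 58.9 FPKM in ER-dKO and 56.8, 61.8 and 61.4 in ETR-tKO cells. In the order of means, the 8 conditions from *Etv5*-KO N16h (85.8 ± 5.34, SD, n = 2) down to ER-dKO CHp5 (57.2 ± 1.52, n = 3) each overlapped the next, and only 2i-p5, N72h and CHp2 were set apart from the neighbour above.

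*Fgf5* (chr5:98254184-98277030, plus strand) is a standard marker of the formative and postimplantation epiblast. In RGd2 cells it read 0.205, 0.0554 and 0.267 FPKM in 2i, 3.03, 2.94 and 1.75 at N16h and 11.3, 11.4 and 10.5 at N72h. The 2i-p5 libraries had 0.389, 0.109 and 0.36 FPKM and those in CHp2 1.27, 1.91 and 2.14. *Fgf5* was thus nearly silent in 2i and stepwise higher at N16h and N72h, where its mean of 11.1 ± 0.472 FPKM (SD, n = 3) was above every library of the other 10 conditions. *Etv5*-KO cells had 0, 0 and 0.0105 FPKM in 2i, which is 1 count in 3 libraries, and 0.649 and 1.44 at N16h. *Rbpj*-KO cells had 0.0597, 0.122 and 0.136 FPKM in 2i and 0.711, 1.02 and 1.51 at N16h. The N16h libraries of both single mutants lay below all 3 RGd2 N16h libraries in FPKM, while on the spike-in scale the ranges touched. ER-dKO cells had 0.156, 0.241 and 0.117 FPKM and ETR-tKO cells 1.24, 0.82 and 0.819, so the triple mutant, in N2B27 for 5 passages, stood between 2i and N16h.

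*Fgf8* (chr19:45736798-45742915, minus strand) is made in the primitive streak and is needed for gastrulation. It was a gene of a single condition here: the CHp2 libraries had 20.8, 20.4 and 14.9 FPKM, while the other 29 libraries did not pass 0.713 FPKM and 6 of them had no count. The next levels were those of 2i-p5, with 0.56, 0.526 and 0.167 FPKM, and ETR-tKO, with 0.713, 0.258 and 0.214. Of the primitive streak markers, *T* moved with it, at 69.1 ± 1.89 FPKM (SD, n = 3) in CHp2 against 5.81 ± 1.03 in 2i-p5, and it was the 1 marker called higher of 5 tested. *Mixl1* overlapped, at 0.3385 to 0.673 FPKM against 0.143 to 0.6084. The 6 markers together summed to 70.44 to 74.15 FPKM in CHp2, 8.946 to 10.12 in 2i-p5 and 0.9599 to 1.524 at N72h, with 4 of the 6 below 1 FPKM on average and none at 0 in CHp2. The part of such cells in the *Fgf8* level was not tested.

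*Fgf15* (chr7:144896531-144900953, plus strand), the mouse counterpart of human FGF19 and better known as an endocrine factor of the gut, lies beside *Fgf4* on chromosome 7. RGd2 cells had 0.15, 0.272 and 0.109 FPKM in 2i and 0.177, 0.34 and 0.221 in 2i-p5. After withdrawal they had 4.1, 3.97 and 2.96 FPKM at N16h, 3.18, 3.73 and 3.3 at N72h and 2.21, 1.65 and 3.15 in CHp2. In the RGd2 and single-mutant cells, *Fgf15* levels in 2i and outside 2i did not overlap. Every library in 2i was at or below 0.34 FPKM and every library without the MEK inhibitor at or above 1.46. The N16h and N72h cells lacked the GSK3 inhibitor too, and CHp2 also differed in passage, so the part of the MEK inhibitor was not isolated. *Etv5*-KO cells had 0.0513, 0.0538 and 0.0604 FPKM in 2i and 3.42 and 4.23 at N16h, and *Rbpj*-KO cells 0.0732, 0.189 and 0.192 in 2i and 2.18, 1.46 and 2.42 at N16h. ER-dKO cells fell in the gap, with 1.04, 0.833 and 0.803 FPKM, and ETR-tKO cells had 2.5, 1.83 and 2.35. *Fgf15* therefore reached its N72h level by 16 h, whereas *Fgf5* was still low at that time.

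*Fgfr1* (chr8:25513654-25575718, plus strand), the main receptor of ES cells, had the narrowest range of the 8 genes relative to its level. It was measured at 9.48, 8.43 and 13.3 FPKM in RGd2 2i, 9.52, 9.19 and 9.89 in 2i-p5 and 9.82, 8.95 and 9.33 at N16h. At N72h the libraries had 11.9, 13.4 and 13.1 FPKM and in CHp2 11.5, 11.7 and 11.04. *Etv5*-KO cells had 14.1, 13.1 and 12.7 FPKM in 2i and 13.3 and 12.99 at N16h. The ETR-tKO libraries, at 16.0, 15.8 and 15.6 FPKM, were above all others, while *Rbpj*-KO (12.4, 9.96 and 10.3 in 2i, 11.1, 10.5 and 10.8 at N16h) and ER-dKO cells (11.03, 10.3 and 10.1) lay within the range of RGd2 2i. Of 10 neighbouring pairs in the order of conditions, 8 overlapped, so most of that order is not resolved, and scaling by spike-ins changed the rank of 9 of the 11 conditions.

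*Fgfr2* (chr7:130162451-133123350, minus strand), a receptor that acts in primitive endoderm and trophoblast, was the second receptor by level. Of the 2 receptors that reached 1 FPKM, it varied more between conditions relative to its level. RGd2 cells had 2.35, 2.15 and 2.17 FPKM in 2i, 1.65, 1.86 and 2.14 in 2i-p5 and 2.5, 2.33 and 1.65 at N16h. They had 3.36, 3.38 and 2.87 FPKM at N72h and 1.65, 2.0 and 1.44 in CHp2. The single mutants were lower, with 1.57, 1.72 and 1.57 FPKM in *Etv5*-KO 2i, 1.13 and 1.47 in *Etv5*-KO N16h, 1.06, 1.1 and 1.32 in *Rbpj*-KO 2i and 1.23, 1.31 and 1.23 in *Rbpj*-KO N16h. The double mutant was lowest of all, with 0.343, 0.453 and 0.34 FPKM, and the triple mutant was near the top, with 3.37, 2.83 and 2.72. No single-mutant library reached any RGd2 2i library, and the ER-dKO libraries were below all others. *Fgfr2* shares 314 exon bases with *Ctbp2* on the same strand where reads cannot be assigned to either gene, and no other member shares exon bases with another gene.

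*Fgfr3* (chr5:33721674-33737068, plus strand) and *Fgfr4* (chr13:55152640-55168759, plus strand), receptors better known from cartilage and liver, stayed below 1 FPKM throughout. *Fgfr3* had 0.299, 0.366 and 0.47 FPKM at N72h and 0.189, 0.144 and 0.163 in CHp2, and in the other 9 conditions no library passed 0.121. *Fgfr4* had 0.63, 0.387 and 0.675 FPKM at N72h and reached at most 0.393 elsewhere. Both were thus highest at N72h by their means, but they could not be called by the rule used here.

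**Figure D1:**
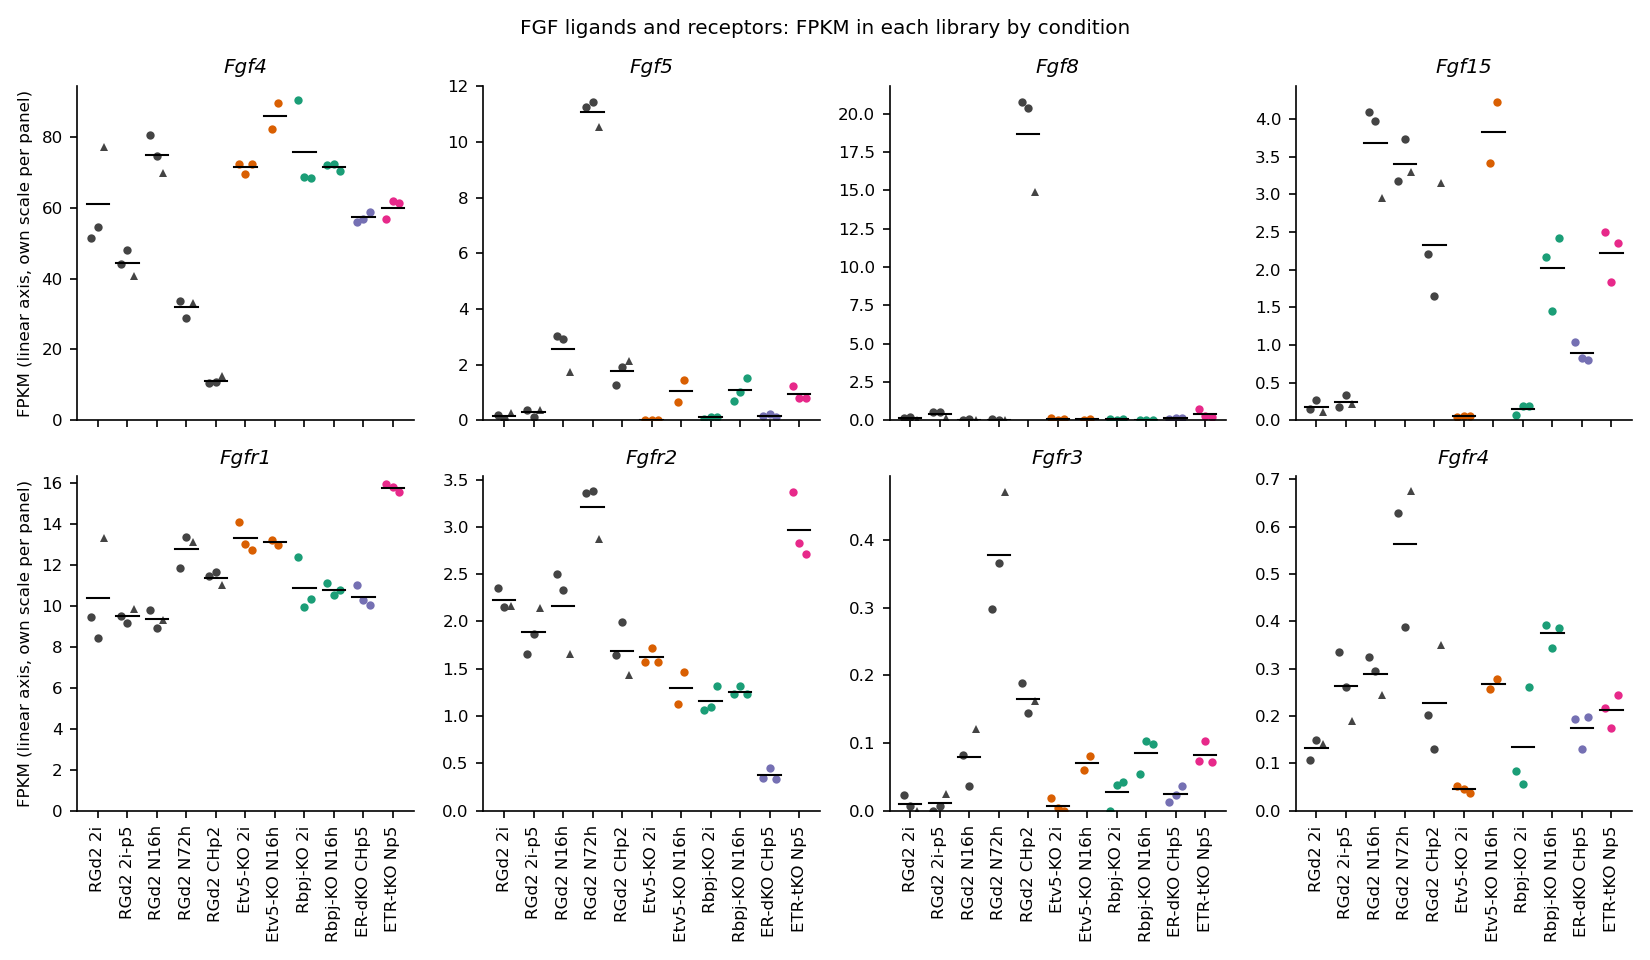
Level of each of the 8 genes in FPKM (vertical axes, separate linear scale for each gene) in the 11 conditions (horizontal axis), with a point for each library (triangles for the clonal RGd2 derivative) and a bar at the mean. *Fgf4* is lowest in CHp2 (10.4 to 12.5 FPKM), *Fgf8* is high in CHp2 (14.9 to 20.8 FPKM against at most 0.713 elsewhere), *Fgf5* peaks at N72h (10.5 to 11.4 FPKM) and *Fgfr2* is lowest in ER-dKO cells (0.34 to 0.453 FPKM).

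Put together as shares, the ligands and the receptors differed in how much their makeup changed. *Fgf4* took 99.2% ± 0.315 (SD, n = 3) of the summed FPKM of the 4 ligands in RGd2 2i, 92.3% ± 1.19 at N16h, 68.7% ± 2.62 at N72h and 33.1% ± 4.48 in CHp2, where *Fgf8* held most of the rest. Of the summed FPKM of all *Fgf* genes listed, *Fgf4* took 83.86% ± 2.016 in 2i, 77.79% ± 1.928 at N16h, 56.71% ± 3.58 at N72h and 23.55% ± 3.424 in CHp2. Among the *Fgf* genes that are no members, *Fgf17* had the highest mean in 2i, at N16h and in CHp2. At N72h *Fgf11* did, with 3.33 FPKM against 1.74 for *Fgf17*. The sum of the 4 ligands was 61.5 ± 13.9 FPKM in 2i, 81.2 ± 6.46 at N16h, 46.4 ± 2.00 at N72h and 34.0 ± 1.15 in CHp2. *Fgfr1* took 73.44% to 95.25% of the receptor sum over the 32 libraries (median 84.95%) and *Fgfr2* 2.961% to 20.81%. The share of *Fgfr1* was highest in ER-dKO cells, at 94.8% ± 0.425, and lowest at N72h, at 75.5% ± 1.77. The receptor sum had its highest means in ETR-tKO cells, 19.1 ± 0.512 FPKM, and at N72h, 17.0 ± 0.716, against 12.8 ± 2.54 in 2i. These sums compare messenger RNA and not protein or ligand activity.

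**Figure D2:**
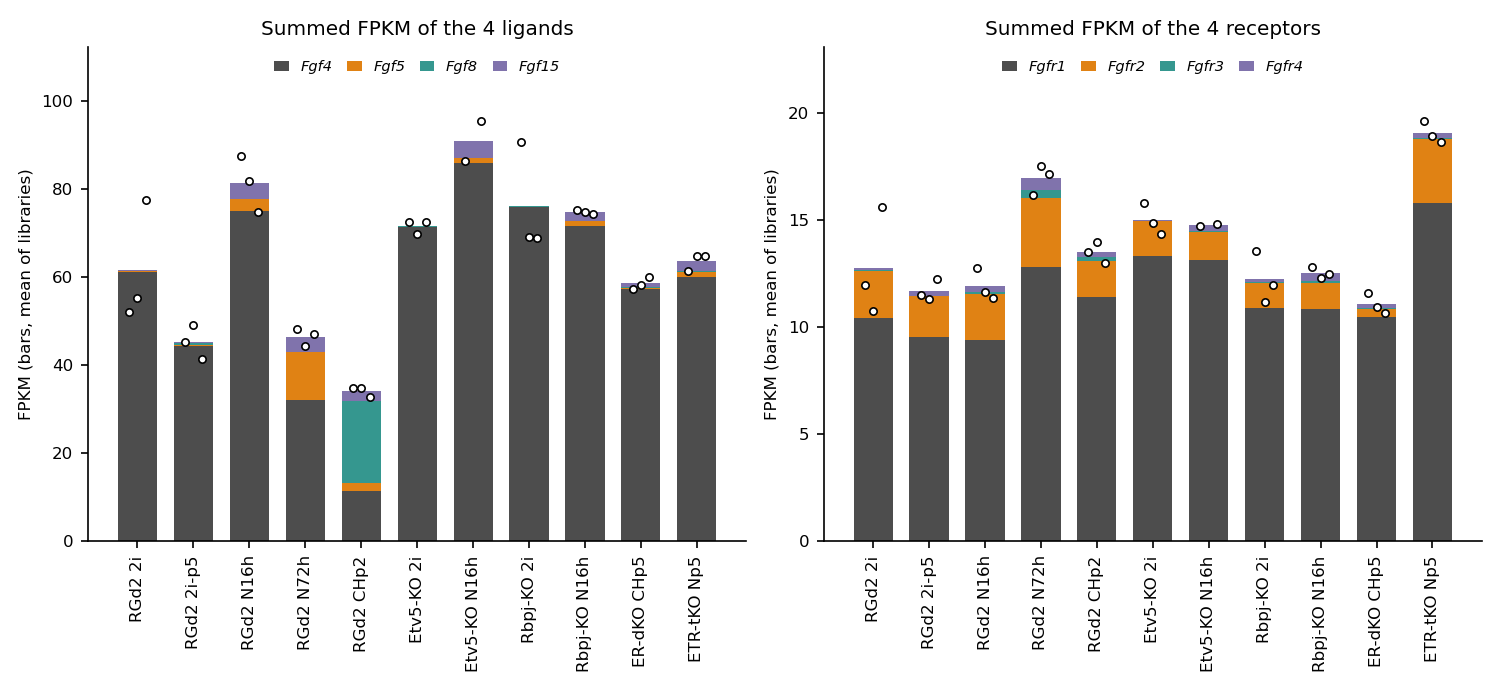
Summed FPKM of the 4 ligands (left) and of the 4 receptors (right) in the 11 conditions, with bars stacked from the mean of each gene and open circles for the sum in each library. *Fgf4* makes up nearly all of the ligand bar except at N72h (68.7%) and in CHp2 (33.1%), and *Fgfr1* at least 73.44% of the receptor sum in every library.

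The first comparison asked which members responded within 16 h of withdrawal of both inhibitors. In RGd2 cells, *Fgf15* rose by 3.94 on the log2 scale (SE 0.29, edgeR adjusted p = 1.43e-14) and *Fgf5* by 3.87 (SE 0.40, edgeR adjusted p = 2.6e-10), each higher in 3 of 3 N16h libraries than in any 2i library. *Fgfr1* fell by 0.34 (SE 0.11, edgeR adjusted p = 0.0184), although its 2i and N16h libraries overlapped. That call was lost with TMM scaling (-0.13, edgeR adjusted p = 0.309) and without any of 4 of the 6 libraries (edgeR adjusted p between 0.0655 and 0.101). *Fgf4* stood at 0.12 (SE 0.11, edgeR adjusted p = 0.452) and became a call with TMM scaling (0.31, edgeR adjusted p = 0.0233), and *Fgfr2* was at -0.27 (SE 0.16, edgeR adjusted p = 0.184). So 2 of 8 members were called higher and 1 lower, against 5.37% and 23.2% of all genes tested (of all calls 18.77% were higher, or 48.05% with TMM scaling), and 3 higher and 0 lower with TMM scaling. The members' median log2 change was 0.51, beside -0.23 for all genes. *Fgf8* (-2.90, edgeR adjusted p = 0.00376) and *Fgfr3* (2.12, edgeR adjusted p = 0.0146) also passed the test, but their means did not exceed 0.142 FPKM and they were not called.

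From N16h to N72h the ligands parted, but time and culture history cannot be told apart in this comparison. *Fgf5* rose by a further 2.05 (SE 0.28, edgeR adjusted p = 4.37e-08) while *Fgf4* fell by 1.28 (SE 0.12, edgeR adjusted p = 2.79e-12), both without overlap of the libraries, and *Fgf15* was at -0.16 (SE 0.21, edgeR adjusted p = 0.532). Of the receptors, *Fgfr1* rose by 0.41 (SE 0.11, edgeR adjusted p = 0.00244) and *Fgfr2* by 0.51 (SE 0.16, edgeR adjusted p = 0.00567). The *Fgfr2* call was lost without the clonal N16h library (0.34, edgeR adjusted p = 0.0792). In all, 3 members were called higher and 1 lower, where 20.3% and 19.2% of all genes were, and the members' median was 0.46 against 0.01.

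Set against long-term culture in 2i, exited cells at N72h had 4 members higher and 1 lower, beside 22.2% and 14.8% of all genes (of all calls 59.92% were higher, or 47.51% with TMM scaling), with a median of 1.001 against 0.11. *Fgf5* was higher by 5.37 (SE 0.38, edgeR adjusted p = 1.56e-15), *Fgf15* by 3.77 (SE 0.29, edgeR adjusted p = 3.53e-14), *Fgfr2* by 0.79 (SE 0.16, edgeR adjusted p = 7.35e-05) and *Fgfr1* by 0.48 (SE 0.12, edgeR adjusted p = 6.27e-04). *Fgf4* was lower, with a log2 change of -0.43 (SE 0.12, edgeR adjusted p = 0.00185). The receptor calls rest on the baseline: against RGd2 2i in place of 2i-p5, *Fgfr1* was at 0.07 (edgeR adjusted p = 0.597) and *Fgfr2* at 0.24 (edgeR adjusted p = 0.197). Primitive endoderm markers also differed, with a summed level of 8 genes of 45.42 to 95.89 FPKM at N72h against 7.98 to 9.562 in 2i-p5, 5 of the 8 called higher, 3 below 1 FPKM at N72h and none at 0. Their part in the *Fgfr2* level was not tested.

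CHp2 was compared with 2i-p5, a pair in which the GSK3 inhibitor was kept and the MEK inhibitor omitted in CHp2. The passage number also differed, 2 against 5. The naive markers summed to 297 to 339.3 FPKM in CHp2 and 783.1 to 835.9 in 2i-p5. Inhibitor, passage and loss of the naive state cannot be told apart here. *Fgf8* rose by 5.72 (SE 0.43, edgeR adjusted p = 3.04e-14), *Fgf15* by 3.28 (SE 0.30, edgeR adjusted p = 1.03e-11) and *Fgf5* by 2.81 (SE 0.40, edgeR adjusted p = 3.34e-07). *Fgf4*, in contrast, fell by 1.86 (SE 0.12, edgeR adjusted p = 7.26e-16). *Fgfr1* was 0.39 higher (SE 0.12, edgeR adjusted p = 0.00698), a call lost with TMM scaling (0.21, edgeR adjusted p = 0.0869), and *Fgfr2* was at -0.04 (SE 0.17, edgeR adjusted p = 0.893). Both receptors depended on the baseline, since against RGd2 2i *Fgfr1* was at -0.015 (edgeR adjusted p = 0.928) and *Fgfr2* was called lower (-0.59, edgeR adjusted p = 0.00311). The count was 4 members higher and 1 lower, or 3 and 1 with TMM scaling, beside 18.3% and 8.65% of all genes (of all calls 67.85% were higher, or 44.46% with TMM scaling), and the median 1.60 against 0.17. Each CHp2 library lay outside the range of the 2i-p5 libraries for all 4 ligands.

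The 2 baselines in 2i were themselves unlike. In 2i-p5 against 2i, *Fgf4* fell by 0.73 (SE 0.12, edgeR adjusted p = 7.74e-06), *Fgfr2* by 0.55 (SE 0.16, edgeR adjusted p = 0.0072) and *Fgfr1* by 0.40 (SE 0.12, edgeR adjusted p = 0.00592). So 0 members were called higher and 3 lower, beside 1.77% and 30.2% of all genes (of all calls 5.527% were higher, or 55.78% with TMM scaling). With TMM scaling *Fgf4* alone was called (-0.41, edgeR adjusted p = 0.00631), since *Fgfr1* was then at -0.06 (edgeR adjusted p = 0.705) and *Fgfr2* at -0.19 (edgeR adjusted p = 0.387). Without the RGd2 2i library numbered 31, *Fgf4* was likewise the one call left. The median of the members was -0.18 and that of all genes -0.37.

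**Figure D3:**
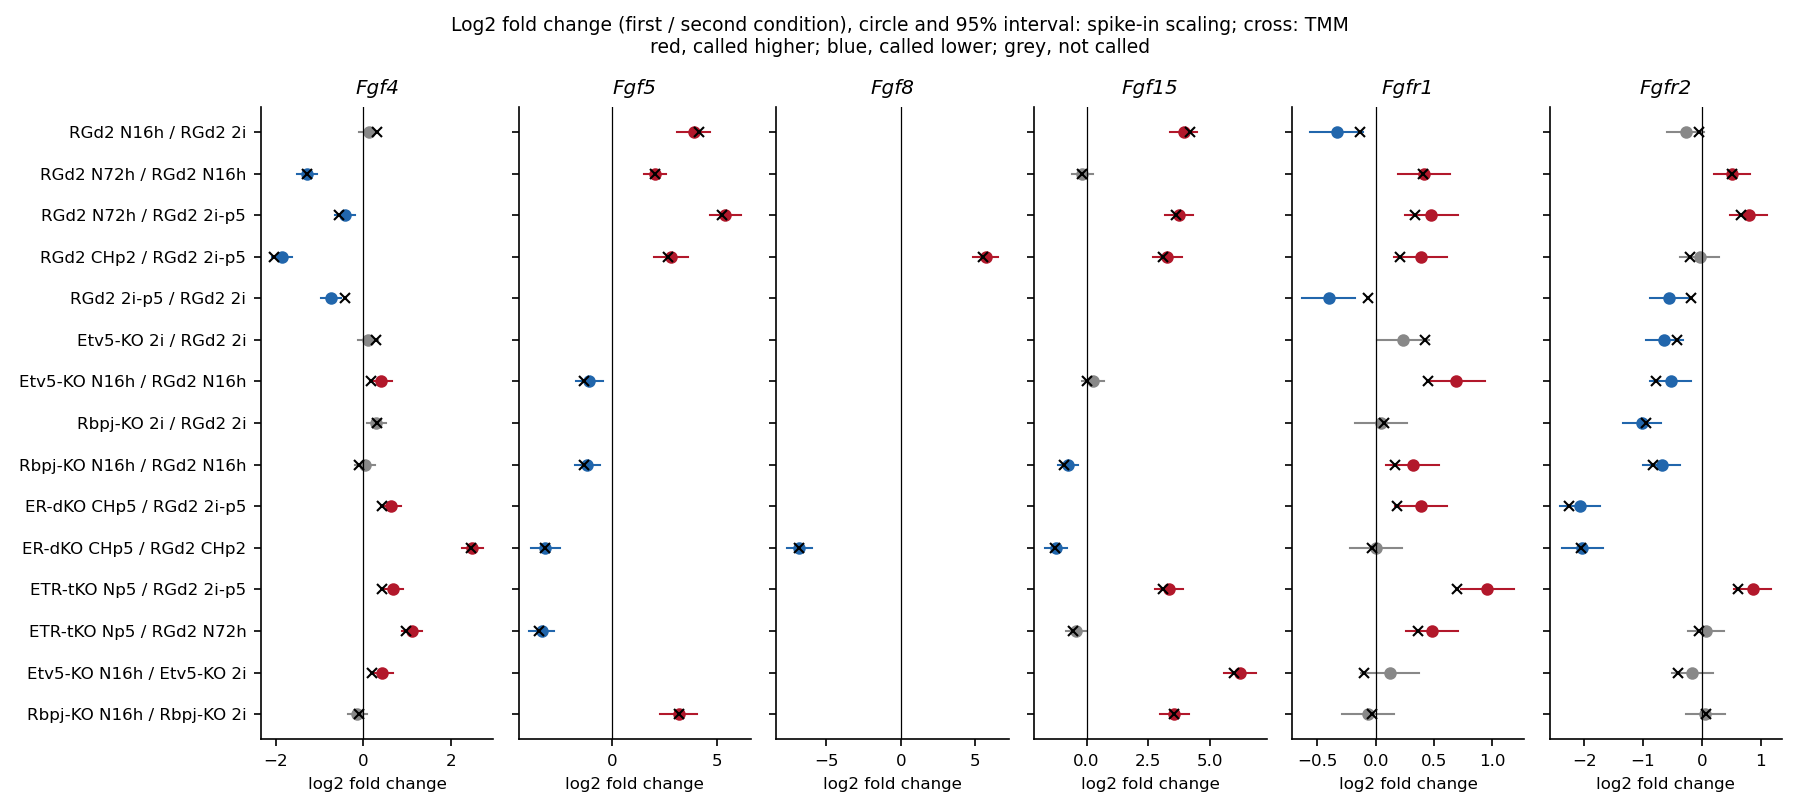
Log2 fold change of the 6 members that reached 1 FPKM (panels, each with its own horizontal axis) in the 15 comparisons of 2 conditions (lines, first over second), as a circle with its 95% interval for spike-in scaling and a cross for TMM scaling. Red marks called higher, blue called lower and grey not called, pairs with under 1 FPKM in both conditions or with a condition of at most 3 counts are left blank, and *Fgfr2* is blue in every comparison of a single or double mutant with RGd2 cells.

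Loss of *Etv5* was first compared within 2i, where MEK is inhibited. *Fgfr2* fell by 0.64 (SE 0.16, edgeR adjusted p = 0.0024), and no other member was called. This call remained with TMM scaling (-0.42, edgeR adjusted p = 0.0236) and was lost without the RGd2 2i library numbered 31 (-0.46, edgeR adjusted p = 0.0594). *Fgf4* was at 0.10 (SE 0.11, edgeR adjusted p = 0.533) and *Fgfr1* at 0.23 (SE 0.11, edgeR adjusted p = 0.129), both called higher with TMM scaling (0.28, edgeR adjusted p = 0.0471, and 0.42, edgeR adjusted p = 0.00109). Below 1 FPKM, the low basal expression of *Fgf5* and *Fgf15* was lower still. *Fgf5* had 1 count against 28, a ratio of 0.0227 after scaling with an exact 95% counting interval of 5.55e-04 to 0.137, and *Fgf15* passed the test at -2.03 (SE 0.44, edgeR adjusted p = 4.92e-04). Called members numbered 0 higher and 1 lower, or 2 and 1 with TMM scaling, where 3.76% and 17.1% of all genes were called (of all calls 18.03% were higher, or 55.6% with TMM scaling), and the median was -1.25 against -0.23.

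At N16h, *Etv5*-KO cells had more *Fgfr1* and *Fgf4* and less *Fgf5* and *Fgfr2* than RGd2 cells. *Fgfr1* was higher by 0.69 (SE 0.13, edgeR adjusted p = 5.08e-05) and *Fgf4* by 0.40 (SE 0.13, edgeR adjusted p = 0.0156), the latter not called with TMM scaling (0.16, edgeR adjusted p = 0.366). *Fgf5* fell by 1.08 (SE 0.33, edgeR adjusted p = 0.0116) and *Fgfr2* by 0.53 (SE 0.18, edgeR adjusted p = 0.0242), with library ranges that overlapped on the spike-in scale. With only 2 mutant libraries, 3 of these calls turned on single libraries. *Fgf4* was at 0.27 without *Etv5*-KO library 18 (edgeR adjusted p = 0.313) and at 0.33 without RGd2 library 24 (edgeR adjusted p = 0.0879). Without the *Etv5*-KO library numbered 17, *Fgf5* was at -0.59 (edgeR adjusted p = 0.3) and *Fgfr2* at -0.30 (edgeR adjusted p = 0.365), without the RGd2 library numbered 22 neither was called, and a DESeq2 Wald test gave *Fgf5* an adjusted p of 0.0591. *Fgf15* did not pass (0.26, SE 0.23, edgeR adjusted p = 0.45). The count of 2 higher and 2 lower, or 1 and 2 with TMM scaling, stands beside 18.2% and 2.01% of all genes (of all calls 90.04% were higher, or 56.06% with TMM scaling), and the median of 0.18 beside 0.24. Formative markers summed to 98.13 to 107.3 FPKM in *Etv5*-KO against 169.2 to 210.3 in RGd2 cells at N16h, with 0 of 7 below 1 FPKM in either, and their relation to *Fgf5* was not tested.

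Loss of *Rbpj* in 2i changed *Fgfr2* among the members. It fell by 1.01 (SE 0.17, edgeR adjusted p = 2.19e-05) and lay below RGd2 in 3 of 3 libraries, with -0.95 under TMM scaling. *Fgf4* was at 0.29 (SE 0.11, edgeR adjusted p = 0.101), called higher with TMM scaling (0.31, edgeR adjusted p = 0.05 after rounding), and *Fgfr1* at 0.04 (SE 0.12, edgeR adjusted p = 0.883). Thus 0 members were called higher and 1 lower, or 1 and 1 with TMM scaling, beside 3.2% and 3.74% of all genes (of all calls 46.11% were higher, or 58.07% with TMM scaling), and the median was -0.17 against -0.06. The 8 primitive endoderm markers summed to 12.8 to 56.24 FPKM in *Rbpj*-KO and 8.405 to 16.68 in RGd2 2i libraries, with 1 of 8 called higher, 6 below 1 FPKM on average and none at 0 in either, and their part in the *Fgfr2* level was not tested.

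At N16h, *Rbpj*-KO cells had less of both induced ligands and of *Fgfr2*. *Fgf5* fell by 1.16 (SE 0.30, edgeR adjusted p = 0.0043), *Fgf15* by 0.76 (SE 0.22, edgeR adjusted p = 0.0103) and *Fgfr2* by 0.68 (SE 0.16, edgeR adjusted p = 0.00189). The ligand calls each turned on few libraries. *Fgf5* was not called without *Rbpj*-KO library 19 (-0.90, edgeR adjusted p = 0.0583), and *Fgf15* was not called without *Rbpj*-KO library 20 (-0.56, edgeR adjusted p = 0.105) or RGd2 library 22 (-0.65, edgeR adjusted p = 0.0622). *Fgfr1* was 0.32 higher (SE 0.11, edgeR adjusted p = 0.0486), a call that TMM scaling (0.17, edgeR adjusted p = 0.24) and leaving out 5 of the 6 libraries removed. *Fgf4* was at 0.04 (SE 0.11, edgeR adjusted p = 0.867). With 1 member higher and 3 lower, or 0 and 3 with TMM scaling, against 11.7% and 2.12% of all genes (of all calls 84.64% were higher, or 56.31% with TMM scaling), the members' median was -0.32 beside 0.15. The formative markers summed to 94.21 to 99.97 FPKM in these mutant libraries, with 1 of 7 below 1 FPKM. The primitive endoderm markers summed to 15.99 to 77.46 FPKM against 7.888 to 16.31 in RGd2 cells, with 3 of 8 called higher, and the part of either list in these levels was not tested.

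Within each mutant, withdrawal of 2i still raised *Fgf5* and *Fgf15*. In *Etv5*-KO cells *Fgf15* rose by 6.23 (SE 0.33, edgeR adjusted p = 1.21e-18), and *Fgf5* went from 1 count in 3 libraries to 207 in 2, a scaled ratio of 318.9 with an exact 95% counting interval of 56.6 to 12660 (edgeR adjusted p = 7.18e-12). *Fgf4* was 0.41 higher (SE 0.13, edgeR adjusted p = 0.00876). This last call did not hold with TMM scaling (0.18, edgeR adjusted p = 0.244), with the clonal line as a block (0.45, edgeR adjusted p = 0.0849) or without *Etv5*-KO N16h library 18 (0.28, edgeR adjusted p = 0.224). *Fgfr1* was at 0.12 (SE 0.13, edgeR adjusted p = 0.5) and *Fgfr2* at -0.16 (SE 0.18, edgeR adjusted p = 0.517), the latter called lower with TMM scaling (-0.40, edgeR adjusted p = 0.0413). That made 3 members higher and 0 lower, or 2 and 1 with TMM scaling, where 19.6% and 5.93% of all genes were called (of all calls 76.75% were higher, or 46.62% with TMM scaling), with a median of 1.55 against 0.24. In *Rbpj*-KO cells *Fgf15* rose by 3.56 (SE 0.30, edgeR adjusted p = 1.64e-12) and *Fgf5* by 3.16 (SE 0.44, edgeR adjusted p = 3.77e-07), which made 2 higher and 0 lower beside 7.21% and 10.1% of all genes and a median of 0.70 against -0.01. *Fgf4* (-0.14, edgeR adjusted p = 0.44), *Fgfr1* (-0.06, edgeR adjusted p = 0.76) and *Fgfr2* (0.06, edgeR adjusted p = 0.861) did not pass. Without *Rbpj*-KO library 21 the mean of *Fgf5* no longer reached 1 FPKM, although its log2 change was 2.79.

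Whether these responses differed from that of RGd2 cells was tested as an interaction. For *Etv5*-KO cells the response was larger for *Fgf15* by 2.29 (SE 0.50, edgeR adjusted p = 6.93e-04), for *Fgf5* by 3.87 (SE 1.13, edgeR adjusted p = 0.0101) and for *Fgfr1* by 0.46 (SE 0.17, edgeR adjusted p = 0.0418). The *Fgf15* term held with TMM scaling (1.81, edgeR adjusted p = 0.0151), whereas *Fgf5* (3.37, edgeR adjusted p = 0.0859) and *Fgfr1* (0.03, edgeR adjusted p = 0.945) were then not called. The *Fgfr1* call was also lost with the clonal line as a block (0.54, edgeR adjusted p = 0.134) and without any of 8 of the 11 libraries (edgeR adjusted p between 0.0558 and 0.167). The *Fgf5* term also rests on the 1 count in *Etv5*-KO 2i, and was lost without RGd2 2i library 31 (edgeR adjusted p = 0.115) or *Etv5*-KO N16h library 18 (edgeR adjusted p = 0.0627). The *Fgf15* term rests on 18 counts in the 3 *Etv5*-KO 2i libraries. Both ligands started lower in *Etv5*-KO than in RGd2 2i, and at N16h neither *Fgf5* nor *Fgf15* was called higher than in RGd2 cells. In this interaction 3 members were called higher and 0 lower, or 1 and 0 with TMM scaling, against 23.8% and 0.344% of all genes (of all calls 98.58% were higher, or 63.85% with TMM scaling), and the median was 1.43 beside 0.47. For *Rbpj*-KO cells edgeR called 0 of 8 members in either direction, DESeq2 called 0, and 0 had an unadjusted p under 0.05, beside 2.44% and 0.154% of all genes called (94.08% of those calls were higher, or 68.04% with TMM scaling). The largest of the expressed members was *Fgf5* at -0.71 (SE 0.68, edgeR adjusted p = 0.645), and the median was 0.01 against 0.22.

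**Figure D4:**
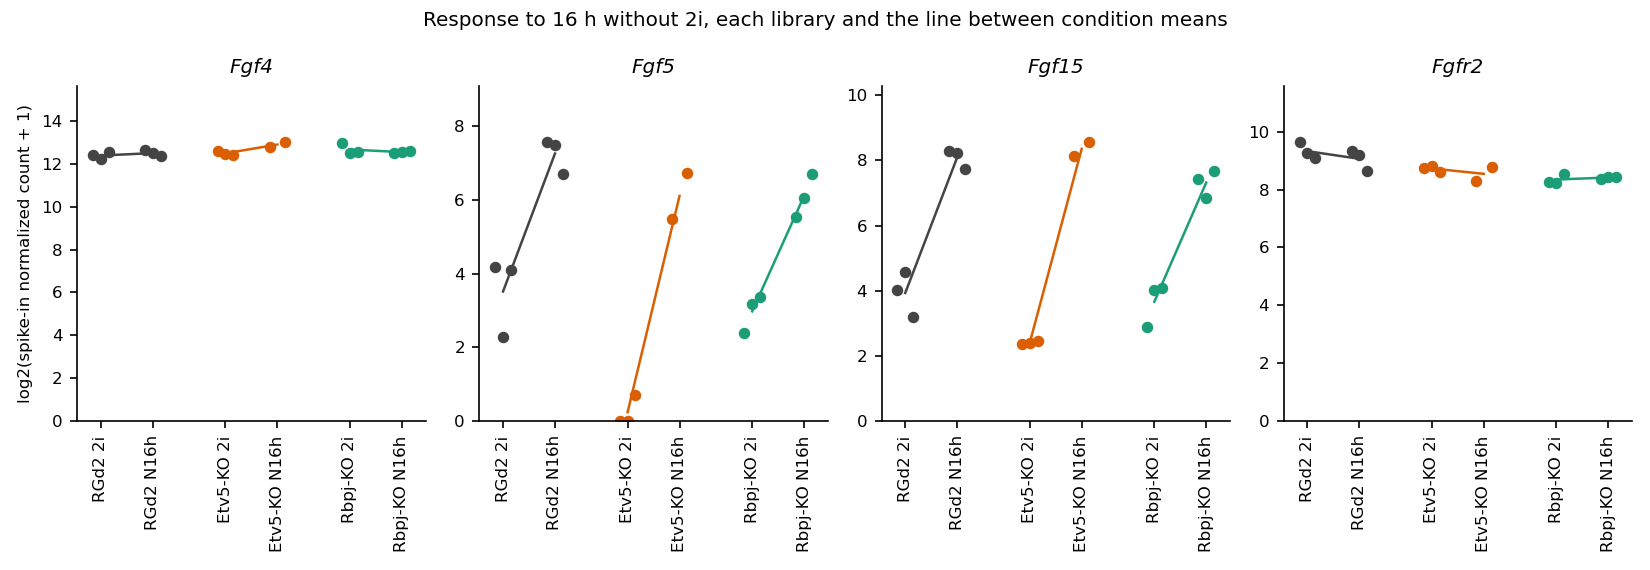
Log2 of the spike-in normalized count plus 1 (vertical axes) in 2i and at N16h for RGd2, *Etv5*-KO and *Rbpj*-KO cells, with a point for each library and a line between the means of the condition. *Fgf5* and *Fgf15* rise in all 3 genotypes and start lowest in *Etv5*-KO 2i, *Fgf4* moves by at most 0.41, and *Fgfr2* lies lower in both mutants than in RGd2 2i.

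ER-dKO cells, which were propagated in CH without the MEK inhibitor, were compared with RGd2 cells after the same number of passages in 2i. Genotype and the absence of the MEK inhibitor cannot be told apart in this comparison. *Fgfr2* fell by 2.07 (SE 0.17, edgeR adjusted p = 1.85e-12), the largest change among the members called, and each ER-dKO library was below each 2i-p5 library. *Fgf4* was higher by 0.62 (SE 0.11, edgeR adjusted p = 4.22e-05) and *Fgfr1* by 0.39 (SE 0.11, edgeR adjusted p = 0.00761), the latter not with TMM scaling (0.18, edgeR adjusted p = 0.159). Against RGd2 2i neither was called, with -0.11 for *Fgf4* (edgeR adjusted p = 0.491) and -0.014 for *Fgfr1* (edgeR adjusted p = 0.944). *Fgf15* passed the test at 2.04 (SE 0.31, edgeR adjusted p = 1.34e-06) with a mean of 0.892 ± 0.128 FPKM (SD, n = 3), just under the minimum. The count was 2 higher and 1 lower, or 1 and 1 with TMM scaling, beside 20.8% and 5.16% of all genes (of all calls 80.09% were higher, or 51.61% with TMM scaling), and the median 0.04 against 0.20. The primitive endoderm sum was 5.239 to 5.871 FPKM in ER-dKO and 7.98 to 9.562 in 2i-p5 libraries, with 1 of 8 called higher and 1 lower, and its part in *Fgfr2* was not tested.

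Against RGd2 cells at passage 2 in the same inhibitor, 1 member was higher and 4 were lower in ER-dKO cells. *Fgf4* was higher by 2.48 (SE 0.12, edgeR adjusted p = 1.41e-19). *Fgf8* fell by 6.82 (SE 0.43, edgeR adjusted p = 1.1e-16), *Fgf5* by 3.16 (SE 0.36, edgeR adjusted p = 1.46e-09), *Fgfr2* by 2.03 (SE 0.18, edgeR adjusted p = 1.15e-12) and *Fgf15* by 1.25 (SE 0.23, edgeR adjusted p = 2.16e-05). Among all genes 18.1% were called higher and 13.6% lower, and the median was -1.64 for the members and 0.02 for all genes. *Fgfr1* was at 0.00 (SE 0.11, edgeR adjusted p = 0.997). In these mutants the 6 primitive streak markers summed to 14.66 to 16.35 FPKM, below the 70.44 to 74.15 of CHp2, with 1 of 5 tested called higher and 1 lower. Genotype and the number of passages cannot be told apart here, and the part of such cells in *Fgf8* was not tested.

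ETR-tKO cells, held without either inhibitor, had 4 members higher and 0 lower than RGd2 2i-p5, where 23.6% and 5.96% of all genes were called (of all calls 79.84% were higher, or 46.26% with TMM scaling) and the median was 0.91 against 0.27. *Fgf15* was higher by 3.34 (SE 0.29, edgeR adjusted p = 4.15e-12), *Fgfr1* by 0.96 (SE 0.12, edgeR adjusted p = 9.15e-09), *Fgfr2* by 0.87 (SE 0.16, edgeR adjusted p = 3.46e-05) and *Fgf4* by 0.67 (SE 0.11, edgeR adjusted p = 9.83e-06). *Fgf5* passed the test at 2.03 (SE 0.40, edgeR adjusted p = 9.26e-05) with a mean of 0.960 ± 0.243 FPKM (SD, n = 3). With RGd2 2i as the baseline, *Fgf15* and *Fgfr1* remained called, while *Fgf4* was at -0.064 and *Fgfr2* at 0.31 (edgeR adjusted p = 0.121). Genotype and the absence of both inhibitors cannot be told apart with either baseline. The primitive endoderm markers summed to 31.6 to 33.91 FPKM in ETR-tKO and 7.98 to 9.562 in 2i-p5 libraries, with 1 of 8 called higher, 6 below 1 FPKM and none at 0 in ETR-tKO cells, and their part in the *Fgfr2* level was not tested.

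Compared with RGd2 cells at N72h in the same basal medium, the triple mutant had 2 members higher and 1 lower, or 2 and 2 with TMM scaling, beside 23.2% and 15.4% of all genes (of all calls 60.1% were higher, or 49.71% with TMM scaling), with a median of -0.18 against 0.11. *Fgf4* was higher by 1.10 (SE 0.12, edgeR adjusted p = 1.46e-10) and *Fgfr1* by 0.48 (SE 0.11, edgeR adjusted p = 4.88e-04). *Fgf5* fell by 3.34 (SE 0.30, edgeR adjusted p = 1.83e-12). *Fgf15* was at -0.43 (SE 0.21, edgeR adjusted p = 0.0908), called lower with TMM scaling (-0.54, edgeR adjusted p = 0.0227), and *Fgfr2* was at 0.07 (SE 0.16, edgeR adjusted p = 0.732). The ligand pattern of ETR-tKO cells thus had *Fgf4* within the range of the RGd2 2i libraries but above every 2i-p5 library, beside *Fgf15* within the range of CHp2. The naive markers summed to 817.3 to 898.8 FPKM in ETR-tKO cells. Comparisons that share a control group, such as those against 2i-p5, are not independent of each other.

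Below the minimum of 1 FPKM, the remaining receptors passed the test in several comparisons without being called. *Fgfr3* was higher at N72h than at N16h (2.28, edgeR adjusted p = 1.45e-04) and than in 2i-p5 (4.77, edgeR adjusted p = 1.68e-07), and higher than in 2i-p5 in CHp2 (3.64, edgeR adjusted p = 1.04e-04) and ETR-tKO cells (2.75, edgeR adjusted p = 0.00329). It was lower in ER-dKO than in CHp2 cells (-2.62, edgeR adjusted p = 2.15e-04) and in ETR-tKO than in N72h cells (-2.03, edgeR adjusted p = 5.42e-04). *Fgfr4* was higher at N72h than at N16h (0.92, edgeR adjusted p = 0.0286) and than in 2i-p5 (1.21, edgeR adjusted p = 0.0098), and lower in *Etv5*-KO than in RGd2 2i (-1.69, edgeR adjusted p = 0.0105) and in ETR-tKO than in N72h cells (-1.23, edgeR adjusted p = 0.00492). From 2i to N16h, *Fgfr3* (3.21, edgeR adjusted p = 6.39e-04) and *Fgfr4* (2.68, edgeR adjusted p = 2.05e-05) were higher in *Etv5*-KO cells and *Fgfr4* in *Rbpj*-KO cells (1.33, edgeR adjusted p = 0.0138). The *Fgfr4* response was larger in *Etv5*-KO than in RGd2 cells (1.78, edgeR adjusted p = 0.0369), though not with TMM scaling (1.31, edgeR adjusted p = 0.205). *Fgfr4* had 17 counts in the 3 *Etv5*-KO 2i libraries. *Fgf8*, at 3 counts in all at N72h, had a scaled ratio of 0.0798 to 2i-p5 (exact 95% counting interval 0.0154 to 0.261), and ETR-tKO cells had 16.65 times the N72h level (5.43 to 83.04).

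The other genes of the pathway were taken from lists, which like the members were chosen with earlier results known. They were counted and not tested as lists, so the share of all genes is given beside each count. Of 13 feedback inhibitors of ERK signalling tested, of 14 listed, 7 were called higher and 0 lower at N16h in RGd2 cells, where 5.37% and 23.2% of all genes were, with a median of 0.59 against -0.23. With TMM scaling these counts were 12 and 0, beside 2648 and 2863 of the 18892 genes. *Spry4* (7.81), *Dusp4* (3.82) and *Dusp6* (3.07), an inhibitor of receptor tyrosine kinases and a pair of ERK phosphatases, moved furthest on the log2 scale. In CHp2 against 2i-p5, 11 were higher and 0 lower, beside 18.3% and 8.65% of all genes, with a median of 1.78 against 0.17. In *Etv5*-KO against RGd2 2i, 0 were higher and 8 lower, beside 3.76% and 17.1%, led by *Dusp6* (-1.76). With TMM scaling these counts were 1 and 6, beside 2115 and 1689 of the 18892 genes. At N16h 3 were higher and 0 lower in *Etv5*-KO cells, a share close to the 18.2% of all genes called higher. In *Rbpj*-KO cells 2 were higher and 3 lower in 2i, beside 3.2% and 3.74%, and 5 higher and 1 lower at N16h, beside 11.7% and 2.12%. In RGd2 cells at N16h, 3 of 10 ERK-responsive transcription factors were higher and 1 lower, beside 5.37% and 23.2% of all genes, led by *Etv4* (4.48). Of 21 coreceptors and heparan sulfate proteins, which present ligand to the receptors, 2 were higher and 9 lower (3 and 9 with TMM scaling), beside the same 5.37% and 23.2%. *Flrt2* (-1.62), *Flrt3* (-1.27) and *Gpc1* (-1.18) moved furthest. From N16h to N72h, 9 of these 21 were higher and 1 lower, beside 20.3% and 19.2% of all genes. Of 10 adaptors 0 were higher and 1 lower at N16h (4 and 1 with TMM scaling), and of 11 RAS, RAF, MEK and ERK genes 1 was higher, *Braf* (1.07), and 3 lower (2 and 1). Beside both lists the shares of all genes were again 5.37% and 23.2%.

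The ligands that are no members were mostly silent: of 18 other *Fgf* genes 12 passed the filter and 4 reached a mean of 1 FPKM in any condition. At N16h in RGd2 cells 1 was called higher and 1 lower, beside 5.37% and 23.2% of all genes. *Fgf17*, which belongs to the same subfamily as *Fgf8*, was the second ligand of RGd2 cells in 2i, at 8.23 ± 1.06 FPKM (SD, n = 3), and stood at 11.01 ± 1.74 at N16h, 1.74 ± 0.781 at N72h and 10.04 ± 1.32 in CHp2. In *Etv5*-KO 2i it was at 0.278 ± 0.0951 FPKM and fell by 5.05 (SE 0.29, edgeR adjusted p = 3.82e-17), and at N16h it stood at 6.81 ± 0.0651 (n = 2). It was likewise lower in *Rbpj*-KO 2i (-1.84, SE 0.23, edgeR adjusted p = 1.27e-07) and in ER-dKO cells against 2i-p5 (-3.26, SE 0.27, edgeR adjusted p = 1.13e-12). *Fgf17* and *Fgfr2* were therefore both lower in these mutants while *Fgf4* was not. *Fgf1* reached 2.19 ± 0.502 FPKM at N16h in RGd2 cells, where it rose by 2.89 (SE 0.40, edgeR adjusted p = 1.38e-07), and stood at 0.0659 ± 0.0244 at N72h. *Fgf11* had its highest mean at N72h, 3.33 ± 0.175 FPKM, and *Fgf13* in CHp2, 1.86 ± 0.400. These last 2 are intracellular relatives that do not act as ligands.

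The genes whose pattern over the 11 condition means was most like that of each member were named by Pearson's r of log2 spike-in scaled counts. The points share libraries and controls, so r is a description. *Fgf4* was closest to *Fanci* (r = 0.98), *Bvht* (0.96) and *Coil* (0.95), *Fgf5* to *Kdm7a* (0.98), *Arrdc3* (0.96) and *Cyp2j13* (0.96), and *Fgf15* to *Utf1* (0.97), *Gm16136* (0.97) and *Grhl2* (0.96). Over the 32 libraries the r of these pairs was 0.84 to 0.95. *Fgf8* was closest to *Zfp964* (0.91), *Tapbpl* (0.91) and *Krt23* (0.91), and it exceeded 1 FPKM in CHp2 alone, so these r values turn on 1 condition. *Fgfr1* and *Fgfr2* had partners with lower r, *Slc45a4* (0.90), *Rnf123* (0.89) and *Rfxank* (0.87) for *Fgfr1* and *Fam222a* (0.89), *Ina* (0.85) and *Pisd-ps1* (0.84) for *Fgfr2*. *Fgfr3* and *Fgfr4*, both below 1 FPKM, were closest to *Thbs3* (0.97), *Miat* (0.97) and *Arhgdig* (0.96) and to *Lat* (0.94), *Fgf5* (0.92) and *Map7d3* (0.91). Of the other members, *Fgf5* was the one gene to appear among these partners.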

How the data were processed

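Ribosomal RNA was depleted before stranded paired-end sequencing, although the labels call the molecule polyA RNA. The deposited values were raw counts per gene of Gencode release M14 and per ERCC spike-in, which the authors obtained with featureCounts from uniquely mapped fragments after adapter trimming (Trim Galore) and TopHat2 alignment against mm10. Tool versions were not given in the sources used here. Of 51826 gene IDs, 193 had no symbol and held 0.02589% of counts. Size factors came from 52 of 92 spike-ins with a count in every library. A single edgeR (4.0.16, R 4.3.3) quasi-likelihood model covered the 32 libraries, after a filter on low counts that left 18892 genes. FPKM was computed from the counts and merged exon lengths. The test was checked on simulated counts. Replicates differed by more than sampling noise (chi-square per gene 3.253 to 39.67). Alternatives covered scaling, DESeq2 1.42.0, filters, baseline, block and omitted libraries.

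Members and gene lists were chosen with earlier results of these data known. All 8 members were described. Log2 fold changes were printed only where a member reached 1 FPKM in either condition or passed the test. Up to 3 called genes per list, other *Fgf* genes reaching 1 FPKM and the 3 genes most like each member were named. The study's methods give 2 replicates for another N16h group than the labels do, and the labels were followed.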

Additional observations from a re-analysis of the deposited data

Results flagged for a closer look

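The responses to withdrawal of 2i that differed between *Etv5*-KO and RGd2 cells are given here because the difference itself passed its test. For *Fgf5* the difference was 3.87 on the log2 scale (edgeR adjusted p = 0.0101), and 3.37 with TMM scaling (edgeR adjusted p = 0.0859), with 1 count in the 3 *Etv5*-KO 2i libraries. For *Fgf15* it was 2.29 (edgeR adjusted p = 6.93e-04), and 1.81 with TMM scaling (edgeR adjusted p = 0.0151), with 18 counts in the 3 *Etv5*-KO 2i libraries. For *Fgfr1* it was 0.46 (edgeR adjusted p = 0.0418), and 0.03 with TMM scaling (edgeR adjusted p = 0.945), and the call was also lost with the clonal line as a block (0.54, edgeR adjusted p = 0.134). The median of all genes in this comparison was 0.47.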

How the results depend on the processing

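Of 1529 values of single members under the alternatives, 1375 kept their direction and their side of the threshold, 84 lost a call, 37 gained one and 33 changed sign. With RGd2 2i in place of 2i-p5 as the baseline, *Fgf4* was at -0.11 in ER-dKO and -0.064 in ETR-tKO cells and *Fgfr1* at -0.014 in ER-dKO and -0.015 in CHp2 cells, and 1 member was called in ER-dKO, 2 in ETR-tKO and 3 in N72h cells. With TMM scaling, and with median-of-ratios scaling on gene counts in second place, the values that changed sign were *Fgf4* in the *Etv5*-KO interaction (-0.12, -0.11) and in *Rbpj*-KO against RGd2 N16h (-0.11, -0.11), *Fgfr1* in ER-dKO against CHp2 (-0.029, -0.064) and in *Etv5*-KO N16h against 2i (-0.10, -0.083), and *Fgfr2* in ETR-tKO against N72h (-0.042, -0.050) and in the *Etv5*-KO interaction (-0.35, -0.34). The called members were then 3 and 2 in *Etv5*-KO against RGd2 2i, 1 and 1 in the *Etv5*-KO interaction and 1 and 1 in 2i-p5 against 2i, and 2 with TMM scaling in *Rbpj*-KO against RGd2 2i. With the total spike-in count, *Fgfr1* was at -0.0063 in *Rbpj*-KO against RGd2 2i. These scalings differ in whether a change in total RNA is kept, and the cause of each change of sign was not tested. A minimum fold change of 1.5 left 2 members in *Etv5*-KO against RGd2 N16h, 1 in 2i-p5 against 2i, 3 in N72h against 2i-p5 and 2 in N72h against N16h. Without the FPKM minimum 6 were called in ETR-tKO against N72h, 4 in *Etv5*-KO against RGd2 2i, 5 in *Etv5*-KO N16h against 2i, 5 in N16h against 2i and 8 in N72h against 2i-p5.

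Leaving out each library in turn gave log2 values that crossed 0 for 10 member values, none of them called. *Fgf4* ranged from -0.028 to 0.12 in *Rbpj*-KO against RGd2 N16h and from -0.23 to 0.035 in *Rbpj*-KO N16h against 2i. *Fgfr1* ranged from -0.048 to 0.055 in ER-dKO against CHp2, from -0.10 to 0.13 in *Rbpj*-KO against RGd2 2i and from -0.15 to 0.064 in *Rbpj*-KO N16h against 2i. *Fgfr2* ranged from -0.0038 to 0.15 in ETR-tKO against N72h, from -0.44 to 0.067 in *Etv5*-KO N16h against 2i, from -0.17 to 0.34 in the *Etv5*-KO interaction, from -0.15 to 0.090 in CHp2 against 2i-p5 and from -0.0087 to 0.17 in *Rbpj*-KO N16h against 2i. The called members ranged from 0 (without RGd2 2i library 31) to 2 (without library 33) in *Etv5*-KO against RGd2 2i, from 1 (without RGd2 2i library 31) to 3 in 2i-p5 against 2i, from 2 (without RGd2 N16h library 22 or *Etv5*-KO library 17) to 3 in *Etv5*-KO against RGd2 N16h, from 1 to 2 (without RGd2 2i library 33) in *Rbpj*-KO against RGd2 2i, from 2 (without *Rbpj*-KO library 19 or 20) to 3 in *Rbpj*-KO against RGd2 N16h, from 1 (without *Etv5*-KO N16h library 18) to 3 in *Etv5*-KO N16h against 2i, from 1 (without *Rbpj*-KO N16h library 21) to 2 in *Rbpj*-KO N16h against 2i, and from 1 (without RGd2 2i library 31 or *Etv5*-KO N16h library 18) to 3 in the *Etv5*-KO interaction.

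The labels share no replicate numbers between conditions, so the clonal line served as the replicate block. It removed the calls of *Fgf4* in *Etv5*-KO N16h against 2i (0.45, edgeR adjusted p = 0.0849) and of *Fgfr1* in the *Etv5*-KO interaction (0.54, edgeR adjusted p = 0.134) and changed no other call. Deviations of the same clone in 2i and at N16h correlated at 0.0421, 0.03183 and 0.1092 in *Rbpj*-KO and at 0.006751 and 0.01592 in *Etv5*-KO cells. RGd2 libraries of the same line correlated at 0.07242 to 0.1773 and those of different lines at -0.1593 to -0.1008. Deviations were taken from the mean of the few libraries of a condition and cancel within it. Positive values for same-line pairs therefore force negative values for other pairs, and the opposite signs are not separate evidence. Depth limits *Fgf5*, *Fgf15* (18 counts) and *Fgfr4* (17 counts) in *Etv5*-KO 2i, *Fgf8* outside CHp2 and *Fgfr3* in 2i, where a few counts set the level. Intervals on count ratios cover counting error only.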
